A study of Mus musculus with 5 samples.

Results

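The GATA transcription factors and their FOG cofactors were followed through a CUT&RUN table of H3K4 signal, an assay in which an antibody guides a nuclease to chromatin, here chromatin methylated on lysine 4 of histone H3. All rows of the deposited peak table whose gene symbol was Gata1, Gata2, Gata3, Gata4, Gata5, Gata6, Zfpm1 or Zfpm2 were taken, which gave 55 peaks of 85275 at 5 of the 8 genes. Gata6 had 22 rows, Zfpm2 15, Gata4 9, Gata2 6 and Gata3 3. No row carried the symbol Gata1, Gata5 or Zfpm1, so these genes have no value here. Of the 55 peaks, 47 had at least 1 CPM (counts per 1e+06 reads in peaks) in at least 2 of the 4 H3K4 libraries and were described and tested. The member just inside that limit, a Zfpm2 peak, had 1.55 and 0.515 CPM after knockdown and 1.02 and 0.526 CPM in controls. The member just outside it, a Gata6 peak, had 0.987 and 0.805 CPM after knockdown and 0.588 and 1.74 CPM in controls.

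Neonatal cardiomyocytes came from mouse hearts at postnatal day 1. Knockdown cells had received Kdm5b-ShRNA-IL for 72 h, a short hairpin RNA against the H3K4 demethylase gene Kdm5b (2 H3K4 libraries), and the control cells Control-ShRNA-IL (2 H3K4 libraries). A negative control library (1) came from Control-ShRNA-IL cells. Strain, the pooling of hearts, the antibodies and the methylation state recognised are not given in the sources used here. For each sample the label of the cells carries a number that differs in all 5 samples (P1 to P5), against day 1 in the isolation protocol, and if it were an age it could not be told apart from the treatment. Libraries are called 3 and 4 after the numbers of their columns, which are not those of the sample titles. Reads in peaks came to 21285387 and 31068085 after knockdown (libraries 3 and 4), 18710132 and 19001373 in controls (libraries 3 and 4) and 3784381 in the negative control. Whether the 2 libraries of a group are separate cultures is not stated, and p-values cover only spread between libraries, possibly a technical one. In the limma fit used below that spread was pooled over peaks of like signal. Its SE and p at a peak thus do not measure the spread of that peak's own libraries. Of 7 defining cardiomyocyte genes (Tnnt2, Myh6, Actn2, Ryr2, Myl2, Myl7 and Ttn) all had a tested peak, and the summed CPM of these peaks was 796 and 779 after knockdown, 872 and 881 in controls and 1000.2 in the negative control. On this scale 6 of the 7 lay below the negative control after knockdown and 4 of the 7 in controls. Of all tested peaks 82.7% did so in either group.

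GATA factors are zinc finger proteins that bind the sequence GATA and its flanking bases. Gata4, Gata5 and Gata6 act in the heart and the endoderm, and Gata1, Gata2 and Gata3 are best known from blood cells: Gata1 in red cells and platelets, Gata2 in blood stem cells and in endothelium, and Gata3 in T cells. The FOG proteins, encoded by Zfpm1 and Zfpm2, do their work by binding to a zinc finger of GATA factors and modifying their activity. Zfpm1 is the partner of Gata1 in blood, and Zfpm2 that of Gata4 in heart and gonad. Methylated H3K4 marks promoters, most of all those rich in CpG dinucleotides, and broad domains of its trimethylated form lie at genes of cell identity.

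Promoter sequences of 300 bases (250 before to 50 after the start) were at hand in RefSeq (GRCm38.p6) for 5 of the 8 genes. The Gata2 and Gata3 sequences are shown because these are the members that had both an H3K4 peak and a sequence. The peaks are on GRCm39, so it was not determined whether a peak covers these bases. The Gata2 start sequences lie at chr6:88193641-88193940 and chr6:88198414-88198713 (both plus strand), and that of Gata3 at chr2:9878551-9878850 (minus strand). They read 5′ to 3′, with CpG dinucleotides in capitals:
Gata2, first start: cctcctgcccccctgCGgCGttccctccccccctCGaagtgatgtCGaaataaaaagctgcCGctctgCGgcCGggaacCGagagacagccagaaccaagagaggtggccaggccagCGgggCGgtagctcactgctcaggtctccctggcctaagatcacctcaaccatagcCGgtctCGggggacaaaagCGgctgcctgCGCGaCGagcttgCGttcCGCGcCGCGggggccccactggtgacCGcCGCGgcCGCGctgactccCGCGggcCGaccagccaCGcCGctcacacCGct
Gata2, second start: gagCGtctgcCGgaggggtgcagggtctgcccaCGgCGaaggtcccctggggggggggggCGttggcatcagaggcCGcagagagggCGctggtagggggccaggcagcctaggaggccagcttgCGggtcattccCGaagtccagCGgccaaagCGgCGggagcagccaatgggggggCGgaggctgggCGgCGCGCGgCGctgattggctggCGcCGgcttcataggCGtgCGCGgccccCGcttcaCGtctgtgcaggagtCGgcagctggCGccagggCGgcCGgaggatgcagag
Gata3: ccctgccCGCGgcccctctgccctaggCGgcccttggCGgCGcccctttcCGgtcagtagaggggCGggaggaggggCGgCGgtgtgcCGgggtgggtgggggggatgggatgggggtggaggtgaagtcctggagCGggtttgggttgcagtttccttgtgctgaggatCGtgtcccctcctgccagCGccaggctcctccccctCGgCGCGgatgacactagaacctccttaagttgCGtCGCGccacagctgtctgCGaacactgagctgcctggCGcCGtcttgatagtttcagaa
The Gata2 promoters held 32 and 29 CpG dinucleotides and the Gata3 promoter 22, against a median of 7 over 32851 promoters of that length. Gata5 (26) and Zfpm1 (37) were also rich in CpG, and Gata1 had 4. The GATA motif was searched on both strands in 4 spellings, of which the first was AGATAA, the next AGATAG, another TGATAA and the last TGATAG; no other motif was sought. Of the 6 promoters of the 5 genes it was found in that of Gata3 alone, in the last spelling, from base 287 to 292, and 29.8% of all promoters held it. A match describes letters only.

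The cardiac factors had the largest H3K4 domains of the family. Gata4 had a peak of 25.7 kb on chromosome 14 from 63465788 to 63491472 (GRCm39). It was the 4th widest of the 85275 peaks and the 2nd highest by mean H3K4 signal. It held 579 and 596 CPM after knockdown (libraries 3 and 4), 583 and 569 CPM in controls (libraries 3 and 4) and 278 CPM in the negative control. The groups overlapped. A further Gata4 peak of 11.1 kb (63499714 to 63510776) began 8.24 kb beyond the end of the first and held 223 and 231 CPM after knockdown, 219 and 232 CPM in controls and 128 CPM in the negative control. Per length these 2 Gata4 domains had 22.9 and 20.5 CPM per kb after knockdown and 22.4 and 20.4 CPM per kb in controls. Between them lay lower peaks, such as one of 3.10 kb (63491508 to 63494611) with 18.9 ± 0.231 CPM after knockdown and 21.9 ± 1.48 CPM in controls (SD, n = 2 each) and 30.1 CPM in the negative control. The other 5 tested Gata4 peaks, 241 to 1611 bp wide, averaged 0.856 to 4.79 CPM after knockdown and 1.61 to 5.97 CPM in controls, and all 5 lay below the negative control. A further 1 Gata4, 4 Gata6 and 3 Zfpm2 rows did not reach the limit and were not tested.

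Gata6 had the 7th widest and 4th highest peak, of 21.2 kb on chromosome 18 from 11046305 to 11067499. It held 567 and 556 CPM after knockdown, 514 and 506 CPM in controls and 222 CPM in the negative control. Both knockdown libraries lay above both control libraries. Almost all Gata6 signal was in this domain, which took 93.9% and 95.02% of the CPM at tested Gata6 peaks after knockdown and 92.2% and 92.4% in controls, against 63.6% in the negative control. The other 17 tested Gata6 peaks were 214 to 2659 bp wide, lay up to 173331 bp from it and averaged 0.490 to 6.93 CPM after knockdown and 0.875 to 9.65 CPM in controls. All 17 were below the negative control in both groups.

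Zfpm2, the FOG cofactor of the heart, had 1 strong peak of 6.23 kb on chromosome 15 from 40516191 to 40522418. It held 193 and 188 CPM after knockdown, 174 and 179 CPM in controls and 71.9 CPM in the negative control, so the knockdown libraries lay above the control libraries. Per length it was the densest of the named peaks in the H3K4 libraries, with 30.5 CPM per kb after knockdown and 28.4 CPM per kb in controls, against 26.5 and 24.1 CPM per kb at the Gata6 domain. The other 11 tested Zfpm2 peaks averaged 0.889 to 6.76 CPM after knockdown and 0.771 to 8.12 CPM in controls, and all were below the negative control.

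The blood factors had shorter domains. The strongest Gata3 peak, 5.81 kb on chromosome 2 from 9880101 to 9885915, held 117 and 118 CPM after knockdown, 99.999 and 106 CPM in controls and 139 CPM in the negative control. Both knockdown libraries lay above both control libraries and below the negative control. The strongest Gata2 peak, 5.60 kb on chromosome 6 from 88172864 to 88178468, held 106 and 104 CPM after knockdown, 96.7 and 101 CPM in controls and 209.8 CPM in the negative control. Here the knockdown libraries again lay above the control libraries, and the negative control was the highest library. Next to these lay a Gata2 peak of 1.30 kb (88170568 to 88171871; 16.5 ± 0.691 CPM after knockdown and 16.7 ± 0.970 CPM in controls, SD, n = 2 each) and a Gata3 peak of 1.97 kb (9877168 to 9879138; 12.5 ± 0.263 and 13.3 ± 2.88 CPM in the same order), with 59.7 and 54.4 CPM in the negative control. The other 4 Gata2 peaks averaged 4.03 to 7.67 CPM after knockdown and 5.64 to 8.44 CPM in controls, and the last Gata3 peak 2.93 and 3.05 CPM, all below the negative control.

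**Figure D1:**
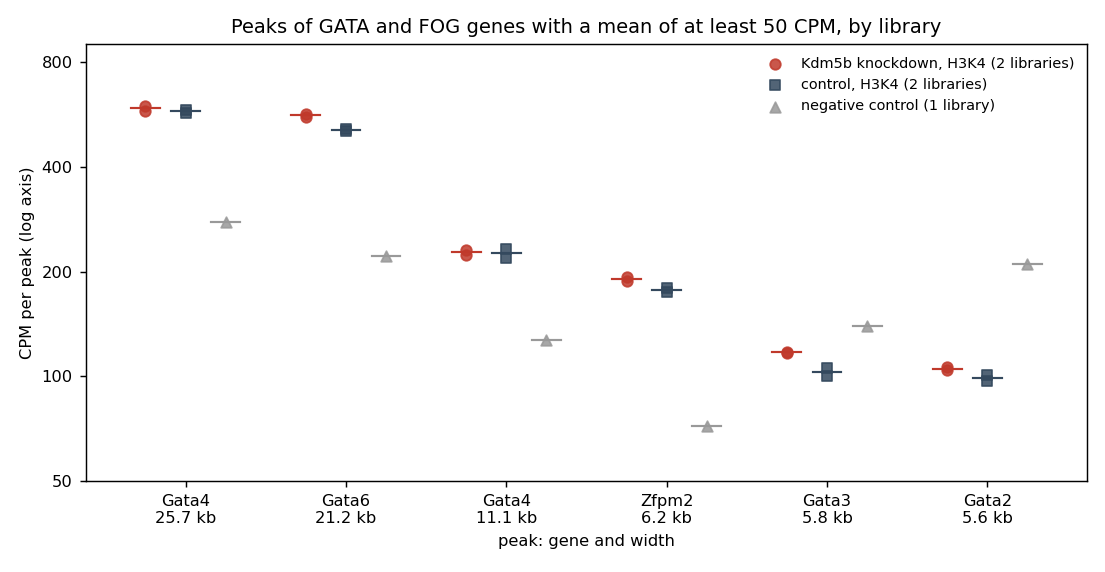
CPM in each library (log axis) at the 6 peaks of GATA and FOG genes with a mean of at least 50 CPM, ordered by mean H3K4 signal, with circles for the 2 knockdown, squares for the 2 control and triangles for the 1 negative control library, and a bar at each mean. The H3K4 libraries lie above the negative control at the Gata4, Gata6 and Zfpm2 peaks and below it at the Gata3 and Gata2 peaks (139 and 209.8 CPM in the negative control).

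**Figure D2:**
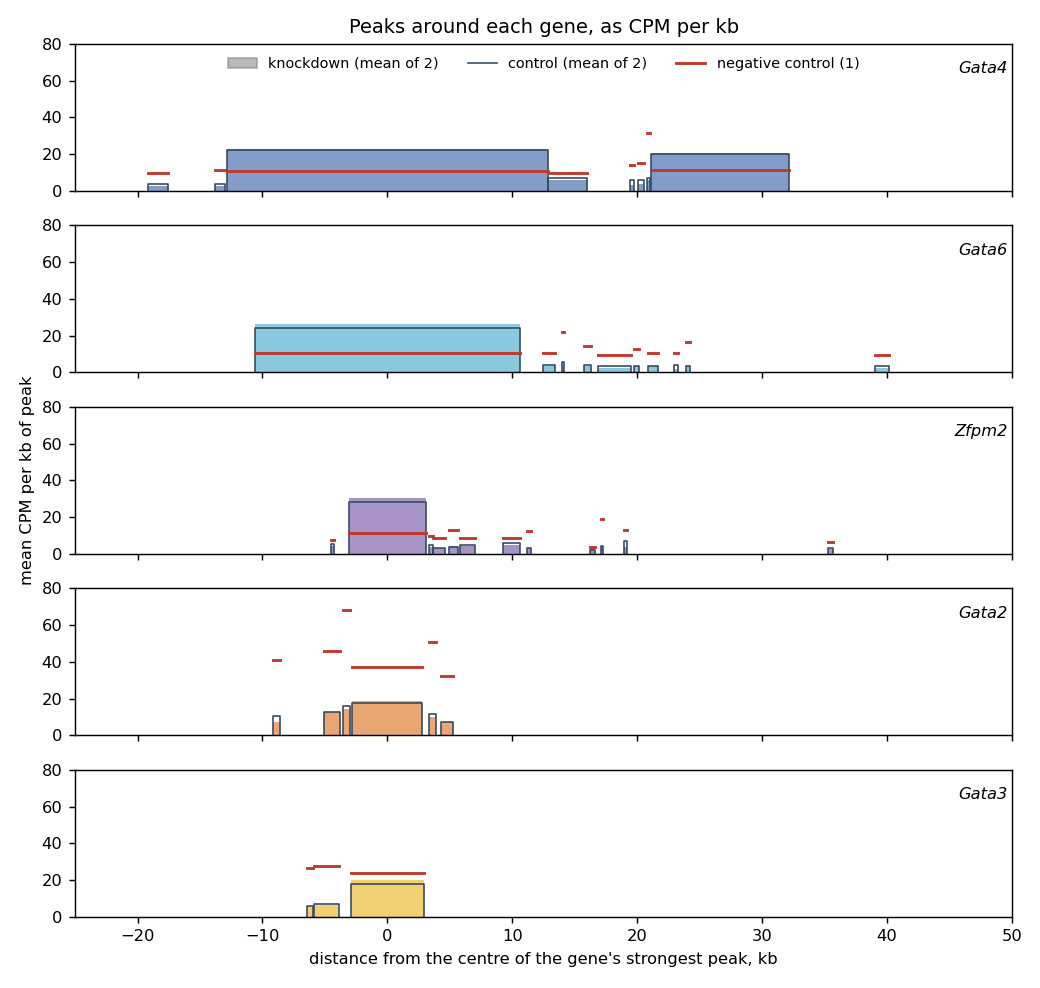
Tested peaks around each gene as mean CPM per kb, against the distance from the centre of the gene's strongest peak in kb, with filled blocks for the knockdown, outlines for the control libraries and red lines for the negative control. Gata4 has domains of 25.7 and 11.1 kb. Red lines stand above every block at Gata2 and Gata3; Gata6 peaks beyond 50 kb are not drawn.

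The H3K4 libraries were set against the negative control to give the background measured the same way, as the log2 ratio of mean CPM + 1. With 1 negative control library these ratios have no test. Of the 47 tested member peaks 3 after knockdown and 3 in controls exceeded the negative control 2-fold or more, as did 6.81% and 5.55% of all 58072 tested peaks. Of the 6 member peaks with a mean of at least 50 CPM these were 3 and 3, where 51.5% and 43.0% of all tested peaks of that height were. At least 2-fold below it were 34 member peaks after knockdown and 32 in controls, where 70.9% and 60.2% of all tested peaks were. The 3 above it were the widest Gata4 peak (log2 ratio 1.08 after knockdown and 1.05 in controls), the Gata6 domain (1.33 and 1.196) and the Zfpm2 peak (1.39 and 1.29). The 11.1 kb Gata4 peak reached 0.83 and 0.82. The strongest Gata3 peak had -0.25 after knockdown and -0.43 in controls, and the strongest Gata2 peak -0.99 and -1.08. Below the negative control were 43 of the 47 member peaks in either group, where 82.7% of all tested peaks were in either group. All 20 member peaks under 500 bp were among them, as were 99.9% of tested peaks of that width after knockdown and 99.8% in controls. These signs depend on the scale: peaks under 500 bp took 5.64% and 3.65% of reads after knockdown, 6.66% and 5.80% in controls and 21.9% in the negative control. With each library scaled to its reads in such peaks, 11 member peaks after knockdown and 7 in controls exceeded the negative control 2-fold or more, and the strongest Gata3 peak (log2 ratio 2.05 and 1.38) and Gata2 peak (1.31 and 0.73) lay above it too.

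**Figure D3:**
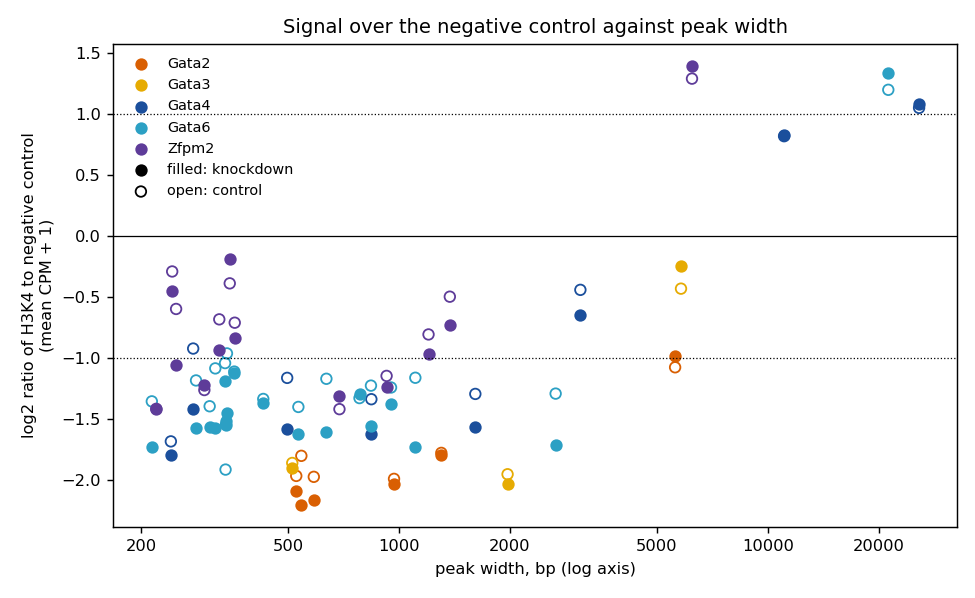
Log2 ratio of mean H3K4 CPM + 1 to negative control CPM + 1 against peak width in bp (log axis) for the 47 tested peaks, coloured by gene, with filled circles for the knockdown and open circles for the control libraries and dotted lines at 2-fold. The 4 peaks above 0 belong to Gata4, Gata6 and Zfpm2, and the strongest Gata2 and Gata3 peaks, of nearly the width of the Zfpm2 peak, lie below it.

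Cardiac and blood factors were then set against each other within each library, where the scale of the library cancels. Gata4 and Gata6 (26 tested peaks, 75.3 kb) held 5.14 and 5.18 times the summed CPM of Gata2 and Gata3 (9 tested peaks, 17.8 kb) after knockdown, 5.31 and 5.28 times in controls and 1.39 times in the negative control. Per kb of peak the cardiac genes had 1.22 and 1.23 times the signal of the blood genes after knockdown, 1.26 and 1.25 times in controls and 0.330 times in the negative control. In the H3K4 libraries the cardiac density was 19.1 CPM per kb in both libraries after knockdown and 18.6 and 18.4 CPM per kb in controls, and the blood density 15.7 and 15.6 against 14.8 and 14.7 CPM per kb. In the negative control the cardiac density was 11.0 and the blood density 33.4 CPM per kb. Per kb the cardiac genes thus stood above the blood genes in the 4 H3K4 libraries and below them in the negative control. The log2 ratio of cardiac to blood signal averaged 2.37 after knockdown and 2.41 in controls, a difference of -0.04. It was lower in 2 of 2 knockdown libraries (exact permutation test, 2-sided, p = 0.333, the smallest that 2 against 2 libraries allow). As Gata1 and Gata5 had no row, the contrast is of 2 genes with 2.

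Knockdown was compared with control in a limma fit over all 58072 tested peaks. At the GATA and FOG genes 2 of 47 peaks were called higher and 0 lower at an adjusted p under 0.05, where 1.33% of all tested peaks were called higher and 1.63% lower (2.96% in all). At an unadjusted p under 0.05 the member peaks numbered 6 of 47, where 16.6% of all tested peaks passed it. The log2 fold change was positive at 11 of the 47, where it was at 30.6% of all tested peaks. The 2 called were the Gata6 domain and the strongest Gata3 peak. The Gata6 domain averaged 561 ± 8.13 CPM after knockdown and 510.3 ± 5.84 CPM in controls (SD, n = 2 each), 1.10-fold higher after knockdown (log2 difference 0.14, SE 0.03, adjusted p = 0.0024 by limma). The strongest Gata3 peak averaged 117 ± 0.904 CPM after knockdown and 103 ± 4.01 CPM in controls (SD, n = 2 each), 1.14-fold higher after knockdown (log2 difference 0.19, SE 0.06, adjusted p = 0.032 by limma). Both belong to the strong peaks, and of the 7040 tested peaks with a mean of at least 50 CPM 8.21% were called higher.

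At the other domains no call was made. The log2 fold change was 0.10 at the Zfpm2 peak (SE 0.05, limma adjusted p = 0.221), 0.09 at the strongest Gata2 peak (SE 0.06, adjusted p = 0.403), 0.03 at the 25.7 kb Gata4 peak (SE 0.03, adjusted p = 0.671) and 0.01 at the 11.1 kb Gata4 peak (SE 0.04, adjusted p = 0.940). All 6 member peaks of at least 50 CPM had a positive value, with a median of 0.10 against 0.07 over all tested peaks of that height. The median over all 47 member peaks was -0.15, and that over all tested peaks -0.14. The flanking Gata4 peak of 3.10 kb had -0.20 (SE 0.10, adjusted p = 0.307). Both knockdown libraries lay above both control libraries at 5 of the 47 member peaks and below them at 15, where 12.1% and 35.4% of all tested peaks did. Of the low Gata6 peaks 14 of 17 had a negative value (lowest adjusted p = 0.098), as did 9 of the 11 low Zfpm2 peaks (lowest adjusted p = 0.441).

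In the ratio of the 2 large cardiac domains the scale of a library cancels, but a different share of background does not. This ratio was chosen after seeing the values. The Gata6 domain held 0.979 and 0.932 of the CPM of the widest Gata4 peak after knockdown, 0.882 and 0.889 in controls and 0.799 in the negative control. It was higher in both libraries after knockdown than in both control libraries, by 1.08-fold (exact permutation test, 2-sided, p = 0.333, the smallest possible). Gata3 over Gata2, taken at their strongest peaks, was 1.10 and 1.13 after knockdown and 1.03 and 1.05 in controls (exact permutation p = 0.333). These groups did not overlap either. In both of these ratios the upper peak was one called higher in the limma fit and the lower one was not. Their separation thus restates those calls and gives no separate evidence. The third ratio computed, the Zfpm2 peak over the widest Gata4 peak, was 0.333 and 0.315 after knockdown and 0.299 and 0.315 in controls, and here the groups overlapped (exact p = 0.667).

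The calls at Gata6 and Gata3 were not stable. They held in 7 and 5 of 17 other settings, and the fold change stayed positive in all of them, from 0.04 to 0.38 at Gata6 and from 0.13 to 0.43 at Gata3 on the log2 scale. The adjusted p at Gata6 was 0.051 without knockdown library 3, 0.032 without knockdown library 4, 0.061 without control library 3 and 0.156 without control library 4. At Gata3 it was 0.125, 0.329, 0.493 and 0.063 in the same order. On the recovered reads edgeR's quasi-likelihood test gave adjusted p = 0.055 at Gata6 and 0.052 at Gata3. Untrended limma weighs a peak's own spread against 1 value shared by all tested peaks, low ones included (prior degrees of freedom 2.15). It gave adjusted p = 0.647 at Gata6 (SE 0.11) and 0.534 at Gata3 (SE 0.11). The 25.7 kb Gata4 peak had an SE of 0.11 there too, against 0.03 in the trended fit. These SE and p thus do not show that the libraries at Gata6 and Gata3 spread widely.

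**Figure D4:**
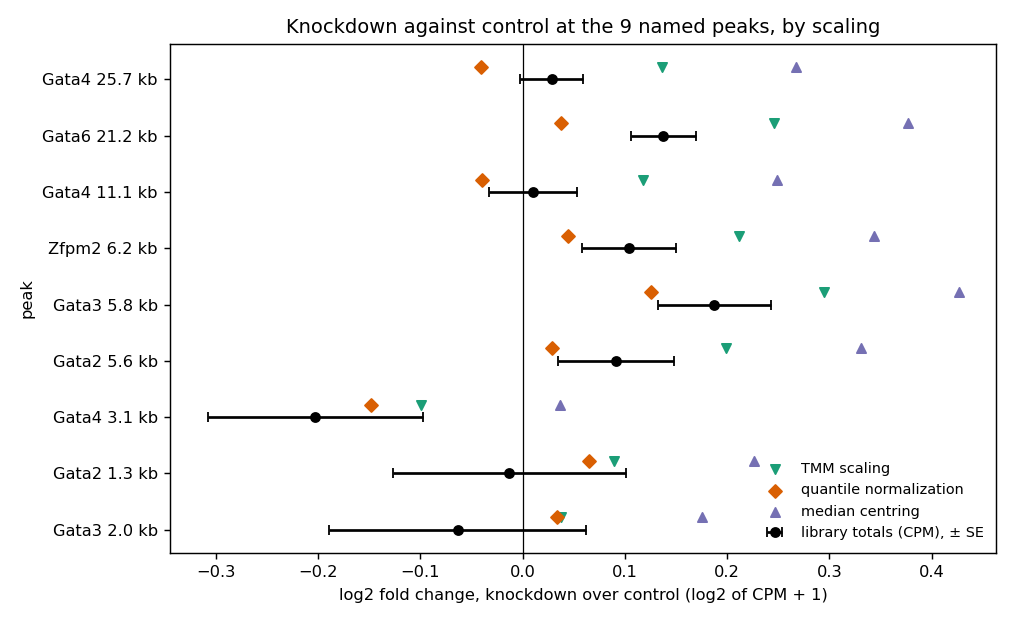
Log2 fold change of knockdown over control at the 9 named peaks, with the strongest at the top, as black circles ± SE from limma on CPM and as coloured symbols under 3 other scalings. The Gata6 domain and the strongest Gata3 peak lie above 0 under each, whereas the Gata4 domains lie just below 0 with quantile normalization. That scaling compares ranks only, which limits the change it can show at the highest peaks (25.7 kb Gata4 peak 2nd, Gata6 domain 4th).

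Marker genes of other heart cells moved in the same comparison. The lists were chosen with earlier results of these data known, so their counts give no independent test. Over all tested peaks 1.33% were called higher (8.21% of those with a mean of at least 50 CPM) and 1.63% lower. The median log2 fold change was -0.14 over all tested peaks and 0.07 over those of at least 50 CPM. Of 6 epicardial markers 6 rose and 0 fell (median 0.45), and of 6 fibroblast markers 5 rose and 0 fell (0.28). The epicardial sum over these peaks was 470.4 and 469.7 CPM after knockdown, 383 and 377 CPM in controls and 762 CPM in the negative control, and the fibroblast sum 520 and 514, 435 and 409 and 540 CPM in the same order. With TMM scaling, median centring or DESeq2 3 of the epicardial markers were called, and of the fibroblast markers 1, 0 and 1, and both medians stayed positive. None of these markers was at 0 in the H3K4 libraries. Msln, the gene of mesothelin, had 46.3 and 47.8 CPM after knockdown and 33.0 and 28.8 CPM in controls (limma adjusted p = 3.4e-09). All 6 endothelial markers had a positive value with 0 called (median 0.14), and 2 of 4 smooth muscle markers rose (Tagln and Acta2), while Cnn1 had -0.20 and Myh11 -0.10 without a call. With TMM scaling, median centring and DESeq2 0 of these 4 were called. Cd68, a macrophage marker, had 1.32 and 0.901 CPM after knockdown and 2.99 and 2.05 CPM in controls (limma adjusted p = 0.138). Of 7 cardiomyocyte markers 0 rose and 2 fell (Myh6 and Ryr2, median -0.13), with negative signs that turn with median centring (median 0.11) and with DESeq2 (0.08). Gata6 and Gata4 are active in epicardial cells and fibroblasts as well as in cardiomyocytes. The part of these cell types in the Gata6 value was not tested. In bulk chromatin more cells of a type and more signal per cell cannot be told apart.

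Partners of the cardiac GATA factors, which bind DNA or act beside them, included the strongest peak of the table. Of all tested peaks 1.33% were called higher, and 8.21% of those with a mean of at least 50 CPM. Of 10 listed partners, 8 had a tested peak (Nkx2-5 and Ep300 had no row), of which 2 rose and 0 fell (median 0.09). They were Mef2c, the gene of a muscle transcription factor (170.4 ± 0.652 CPM after knockdown and 144 ± 6.67 CPM in controls, log2 fold change 0.24, SE 0.05, limma adjusted p = 0.00039), and Hand2, which encodes a helix-loop-helix factor of the heart and whose peak ranked above that of Gata4 (754 and 768 CPM after knockdown, 702 and 707 CPM in controls and 314 CPM in the negative control, log2 fold change 0.11, adjusted p = 0.0092). Tbx20, a T-box factor gene, had 0.11 (adjusted p = 0.078) and Tbx5 0.01 (adjusted p = 0.940). The value was positive at 7 of the 8 and negative at Srf (-0.56, limma adjusted p = 0.412). The strongest Srf peak was only 219 bp wide and near the filter limit. It held 0.564 and 0.547 CPM after knockdown and 1.34 and 1.26 CPM in controls. With TMM scaling, median centring and DESeq2 0 of the 8 were called, while the list median was 0.20, 0.33 and 0.31 and the Mef2c value 0.34, 0.48 and 0.45. With quantile normalization and with edgeR on library totals 1 was called, Mef2c. Quantile normalization sets the top peak of each library to 1 value, so it gives no test of Hand2. Relative to the negative control 3 of the 8 stood at least 2-fold higher in both groups. Of all tested peaks 6.81% did so after knockdown and 5.55% in controls. Of those with a mean of at least 50 CPM it was 51.5% and 43.0%.

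Among target genes of the cardiac factors the calls were in the other direction, and the sign of the list depended on the scaling. Of 10 listed and tested 0 rose and 4 fell, where 1.33% of all tested peaks were called higher and 1.63% lower. All 10 had a negative value (median -0.16). The median was -0.14 over all tested peaks and 0.07 over those with a mean of at least 50 CPM. Adora1, the gene of an adenosine receptor, had 57.3 and 59.4 CPM after knockdown and 72.2 and 72.9 CPM in controls (log2 fold change -0.31, SE 0.07, limma adjusted p = 0.00090). The others were Myh6 (-0.20, adjusted p = 0.00081), Nppa (-0.41, adjusted p = 0.0047) and Tnni3, the gene of cardiac troponin I (-0.21, adjusted p = 0.020). The list median was -0.05 with TMM scaling and -0.21 with quantile normalization, and it turned to 0.08 with median centring and 0.06 with DESeq2, as did the sign at Myh6 and Tnni3 but not at Adora1 and Nppa. With quantile normalization 7 of the 10 were called lower and with edgeR on library totals 4, whereas with TMM scaling, median centring and DESeq2 0 were called. With median centring and with DESeq2 8 of the 10 values were positive.

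Among the listed partners and red cell targets of the blood factors no call was made, where 2.96% of all tested peaks were called. Only 3 of the 10 listed red cell targets had a tested peak. With so few genes the absence of a call at that share is no result about these lists. The strongest peak of Gata3 itself was called, but that call was not stable. Of 8 partners of Gata1 and Gata2 in blood cells 7 were tested (Klf1 had no row), 0 rose and 0 fell (median -0.02). Spi1, a myeloid factor gene, had 10.5 and 11.2 CPM after knockdown and 12.8 and 12.2 CPM in controls (adjusted p = 0.450), and Tal1, a blood and endothelial factor gene, 73.4 and 71.7 against 70.9 and 66.2 CPM (adjusted p = 0.531). Runx1, which encodes a factor of blood stem cells, had 132 CPM in both libraries after knockdown and 122 and 130.3 CPM in controls (adjusted p = 0.539). At unadjusted p under 0.05 there were 0 in limma, and with median centring, TMM and DESeq2 0 were called as well, although the median was then positive (0.22, 0.09 and 0.20). Among red cell targets of Gata1, Epor, the erythropoietin receptor gene, had 36.2 and 34.2 CPM after knockdown and 36.3 and 34.9 CPM in controls (limma adjusted p = 0.950). Nfe2, a red cell and platelet factor gene, had 5.45 and 5.02 CPM after knockdown and 5.24 and 5.05 CPM in controls (limma adjusted p = 0.974). In both the groups overlapped.

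**Figure D5:**
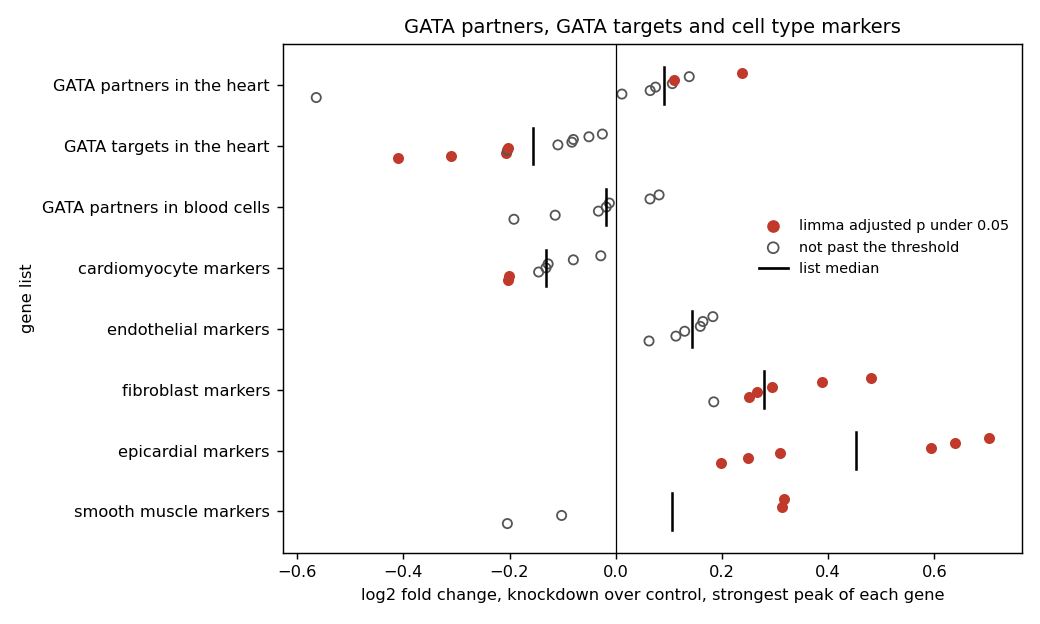
Log2 fold change of knockdown over control at the strongest peak of each listed gene, with filled red circles for limma adjusted p under 0.05, open circles for the rest and a black line at each list median. Heart targets lie below 0 (median -0.16), heart partners mostly above (0.09), and epicardial markers furthest above (0.45).

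By the distance of log2 values over the 5 libraries, among the strongest peaks of 25017 genes, the 3 nearest to the widest Gata4 peak were Smad7, Gata6 and Nfib (distances 0.299, 0.421 and 0.467). The nearest to the Gata6 domain were Nfib, Smad7 and Gata4 (0.0955, 0.393 and 0.421). Nfib, on chromosome 4, had a domain of 20.2 kb with 579.7 and 579.3 CPM after knockdown, 515 and 503 CPM in controls and 212 CPM in the negative control. It was called higher too (log2 fold change 0.19, SE 0.03, limma adjusted p = 3.5e-06, against 0.14 at the Gata6 domain), whereas Smad7 was not (0.03, SE 0.03, adjusted p = 0.678). Of tested peaks with a mean of at least 50 CPM 8.21% were called higher. The other settings were not examined at Nfib and Smad7. Smad7, an inhibitor of TGF-beta signalling, had 527 and 535 CPM after knockdown, 526 and 514 CPM in controls and 288 CPM in the negative control.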

How the data were processed

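Per the labels' protocols, chromatin was taken with an EpiCypher CUT&RUN kit and made into libraries with a NEBNext kit. The submitters' processing notes name Trim Galore and the build GRCm39. Aligner, peak caller, peak merging and gene assignment are not given in the sources used here. Values in the table that the authors deposited are CPM per peak and library, scaled to reads in peaks. Whole reads could be recovered for 100% of values within a tolerance of 1e-06. For this work 2 rows were emptied, and library totals, taken from the value of 1 read, include them. A CPM total fixes each library, so a change over all peaks cannot be read from it.

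Width is end minus start. Values were tested as log2(CPM + 1), so fold changes understate low peaks. The filter was at least 1 CPM in at least 2 of 4 H3K4 libraries, and the test limma 3.58.1 with a trend (R 4.3.3, 2-sided, Benjamini-Hochberg over 58072 peaks, threshold 0.05). Its prior degrees of freedom were infinite. Lists used the strongest peak per gene. The code was tested on simulated data. Members and lists were chosen with earlier results of these data known. Named were each gene's strongest and widest peak, peaks past the threshold and peaks with a mean of at least 10 CPM, and in each list the 3 genes with the smallest p beside those called. The lists of red cell targets and blood markers are reported in part, and 1 gene is not reported here. Tbx5, Srf and the markers were named after their values were seen. A sign change counts as a reversal where the value was past the threshold in either setting. Other settings were a pseudocount of 0.5 or 5, a 5 CPM filter or none, scaling by TMM, quantiles or the median, untrended or robust limma, edgeR 4.0.16 and DESeq2 1.42.0 on the recovered reads, the column number as a block, and each library left out.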

Additional observations from a re-analysis of the deposited data

How the results depend on the processing

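Against 773 peaks called higher and 947 called lower over the whole table, 55 and 34 were called with TMM scaling, 28 and 3 with median centring, 51 and 38 with edgeR and TMM, 16 and 3 with DESeq2, and 0 and 0 with untrended limma (8226 peaks at an unadjusted p under 0.05). Leaving out 1 library gave 155 to 371 higher and 185 to 476 lower. The remaining library of a group is then assumed to vary like the other group. Against 2 member calls, 1 was made without a filter and 0 with TMM, quantile or median scaling, untrended limma, edgeR (library totals or TMM) and DESeq2, and 0 to 1 with 1 library left out. The adjusted p at Gata6 and Gata3 was 0.486 and 0.378 with TMM, 0.568 and 0.171 with quantile normalization, and 0.517 at both with DESeq2. Median centring raised the median of all tested peaks by 0.24, quantile normalization by 0.14 and DESeq2 by 0.15, and the cause of the lost calls was not tested. Relative to that median the Gata6 value was 0.28 on CPM and 0.04 with quantile normalization, and the Gata3 value 0.33 and 0.12. Quantile normalization compares ranks only, which limits the change it can show at the Gata6 domain, the 4th highest peak.

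The column number as a replicate block gave 1578 peaks higher and 2275 lower. It kept the calls at Gata6 and Gata3 and added a fall at a low Gata6 peak (11073727 to 11076386, 6.93 ± 1.30 CPM after knockdown and 9.65 ± 1.09 CPM in controls, SD, n = 2 each). The libraries share only a number, and the correlation of the differences between libraries 3 and 4 was 0.118 over tested peaks between knockdown and control.

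With scaling on peaks under 500 bp, 11 (knockdown) and 7 (control) member peaks exceeded the negative control 2-fold or more, against 3 and 3. The log2 ratio turned positive at the strongest Gata2 peak (1.31 after knockdown and 0.73 in controls), the strongest Gata3 peak (2.05 and 1.38) and the 3.10 kb Gata4 peak (1.596 and 1.33), and after knockdown at the second Gata2 (0.44) and Gata3 (0.18) peaks. Pseudocounts, filters and left-out libraries left both counts at 3. The difference between cardiac and blood factors in summed CPM was -0.06 to -0.03 over the settings run. A sum of each peak's own CPM per kb, which is another quantity than the density above and weights narrow peaks more, gave -0.14 (exact permutation p = 0.667), with overlapping groups. Depth limits the negative control most, where 3 reads are 0.793 CPM.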

Other observations

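Genes next to members in the order of RefSeq genes (GRCm38.p6, names only) gave values where the members had no row. These neighbours were looked up after the absence was seen, and their peaks are not values of the members. Gata5os, the antisense RNA gene beside Gata5, had 1 peak of 3.96 kb on chromosome 2, with 46.8 and 47.8 CPM after knockdown, 37.7 and 38.4 CPM in controls and 137 CPM in the negative control. Its log2 fold change was 0.31 (SE 0.08, adjusted p = 0.0090 by limma), a call made at 1.33% of all tested peaks in this direction. Both knockdown libraries lay above both control libraries, where 12.1% of all tested peaks did. The other settings were not examined at this peak. Reads of Gata5 and of its antisense partner cannot be told apart in chromatin. Gm39269, beside Zfpm1, had a strongest peak of 6735 bp on chromosome 8 with 131 and 145 CPM after knockdown, 132 and 143 CPM in controls and 67.1 CPM in the negative control (limma adjusted p = 0.999). None of the nearest 4 genes around Gata1 in that order had a row. Beside Gata3 the RNA gene 4930412O13Rik had 22.8 and 24.2 CPM after knockdown, 21.97 and 24.1 CPM in controls and 74.3 CPM in the negative control, so its negative control was also above its H3K4 libraries.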
